A study of Homo sapiens with 24 samples.

Results

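HLA class I presentation carries peptides from inside the cell to its surface, where T cells and natural killer cells read them. The 9 genes described here cover that route: the heavy chains HLA-B, HLA-C and HLA-E, their shared light chain B2M, the peptide pump TAP1 and TAP2, the loading chaperone TAPBP (tapasin), the immunoproteasome subunit PSMB8, and NLRC5, the transactivator of class I genes. They were picked by symbol from the 60366 entries of a gene count table, and all 9 passed the filter on low counts in every fit. Each was measured by poly(A) RNA sequencing in BXPC3, MIAPACA2 and PSN1, established human pancreatic adenocarcinoma lines. Each line received AM-9747, a tool inhibitor of the arginine methyltransferase PRMT5, or DMSO vehicle for 6 days, with 4 libraries per group and 24 in all. The dose was 100 nM in BXPC3 and PSN1 and 150 nM in MIAPACA2, so for MIAPACA2 line and dose cannot be told apart. The study's text calls all 3 lines MTAP-deleted, a state shared by treated and vehicle cells, whereas the genotype label of every library reads WT. The labels do not say that the 4 libraries of a group came from separate cultures, so p-values measure the spread between these libraries, which may be technical.

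Peptides are cut by the proteasome, in which interferon can swap catalytic subunits for the immunoproteasome forms. TAP1 and TAP2 pair to pump the peptides into the endoplasmic reticulum, and tapasin bridges the pump to empty heavy chains until a peptide fits. NLRC5 binds no DNA itself but joins RFX5, RFXAP and RFXANK on the promoters of class I genes, and many carcinomas have low class I expression. AM-9747 inhibits PRMT5 best when methylthioadenosine, the metabolite that MTAP clears, is present.

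The libraries held between 22.4 and 45.6 M counts each (M, 1000000 counts). Levels are counts per 1000000 (CPM) after TMM scaling, with the mean ± SD of 4 libraries. Mitochondrial transcripts took 7.98 to 31.1% of the counts in PSN1 with AM-9747 and 17.4 to 43.8% in PSN1 vehicle, against at most 20.5% in any library of the other lines. PSN1 vehicle replicate 1 stood apart from its group: it had the lowest mitochondrial share of the 4 and the highest level of 7 of the 9 genes. PSN1 vehicle replicate 3 had the fewest detected genes (16646) and the smallest total. BXPC3 vehicle replicate 4 had the highest level of 6 of the 9 genes in its group. Responses whose call changes without these libraries are given both ways, and the part of the mitochondrial share in the responses was not tested beyond the fits with it as a covariate. PSN1 was the noisiest line, with a biological coefficient of variation of 55.1%, compared with 32.1% for MIAPACA2 and 26.6% for BXPC3. The responses were therefore tested in each line alone. A joint fit of the 3 lines shares 1 spread (46.4%), below that of PSN1 and above those of the other lines. Its PSN1 calls, given below as an alternative, thus rest on a smaller spread than that of PSN1 alone. TMM scaling moved the median log2 change of all genes by -0.15 in MIAPACA2 and -0.33 in PSN1 relative to plain library totals, and by 0.00 in BXPC3.

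The epithelial keratins KRT8 and KRT18 were abundant in all 3 lines, the lowest level being 372 CPM of KRT8 in a PSN1 vehicle library. MIAPACA2 had nearly none of the epithelial adhesion genes EPCAM and CDH1, with at most 1.18 CPM and 0.313 CPM. In PSN1, CDH1 stayed at or under 2.66 CPM. The 6 leukocyte markers summed to 1.15 to 7.89 CPM in BXPC3 and MIAPACA2 and to 19.9 to 40.7 CPM in PSN1. Nearly all of the PSN1 sum was CD14 (17.7 to 39.6 CPM), and the B cell gene MS4A1 was at 0 in every library. The 6 fibroblast and endothelial markers summed to 24.5 to 70.2 CPM in BXPC3 and PSN1 and to 953 to 2825 CPM in MIAPACA2, where COL1A2 made up nearly all of it. That sum was lower in MIAPACA2 with AM-9747 (953 to 1609.8 CPM) than with vehicle (1662 to 2825 CPM), and in BXPC3 it was higher (35.1 to 39.1 CPM) than with vehicle (24.5 to 27.9 CPM). In BXPC3, 3 of the 4 tested genes of that list were higher, where 13.2% of all genes were. The endothelial gene VWF was among them (3.13-fold, adjusted p 0.000661). PECAM1, also endothelial, was lower in BXPC3 (0.50-fold, adjusted p 0.00664), where 16.0% of all genes were, and in PSN1 (log2 -0.82 ± 0.23, adjusted p 0.0436). Of the leukocyte markers, ITGAM was higher in BXPC3 (log2 1.09 ± 0.26, adjusted p 0.012) and MIAPACA2 (log2 2.24 ± 0.64, adjusted p 0.0424). Of the epithelial markers, KRT19 was lower in BXPC3 (log2 -0.79 ± 0.26, adjusted p 0.0444) and EPCAM was higher in MIAPACA2 (log2 4.21 ± 1.01, adjusted p 0.0208) at the low level given above. The part of these markers in the responses below was not tested.

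The promoter sequences of HLA-B, HLA-C, B2M, TAP1, TAP2 and TAPBP are shown because the genes share short motifs by which class I transcription is usually described, while their responses below differ in sign. Each line holds the 200 bases upstream of the gene's RefSeq start site (GRCh38.p14), 5′ to 3′ on the strand of the gene. Capitals mark motif letters on either strand, and overlapping matches run together. The motifs searched were an interferon response element (GAAA, any 2 bases, GAAA), GAAGTGAAA, which is the core of the class I form of that element, TGACG, the core of a cyclic AMP response element, CCAAT, and a kappaB site (GGGGA followed by TTCCC).
HLA-B, chr6:31357180-31357379, minus strand: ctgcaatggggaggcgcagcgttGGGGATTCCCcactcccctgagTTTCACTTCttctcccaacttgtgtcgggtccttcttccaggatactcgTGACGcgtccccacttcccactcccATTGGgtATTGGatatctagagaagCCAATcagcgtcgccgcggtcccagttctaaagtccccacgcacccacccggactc
HLA-C, chr6:31272093-31272292, minus strand: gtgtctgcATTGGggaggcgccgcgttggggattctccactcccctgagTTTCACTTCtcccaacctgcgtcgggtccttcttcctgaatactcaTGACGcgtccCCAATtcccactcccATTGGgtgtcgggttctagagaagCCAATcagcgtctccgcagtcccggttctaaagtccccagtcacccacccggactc
B2M, chr15:44711317-44711516, plus strand: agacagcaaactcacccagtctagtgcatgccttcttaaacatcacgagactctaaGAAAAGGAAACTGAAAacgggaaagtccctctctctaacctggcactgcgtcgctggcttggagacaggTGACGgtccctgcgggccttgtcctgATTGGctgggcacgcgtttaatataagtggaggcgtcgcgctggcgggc
TAP1, chr6:32853705-32853904, minus strand: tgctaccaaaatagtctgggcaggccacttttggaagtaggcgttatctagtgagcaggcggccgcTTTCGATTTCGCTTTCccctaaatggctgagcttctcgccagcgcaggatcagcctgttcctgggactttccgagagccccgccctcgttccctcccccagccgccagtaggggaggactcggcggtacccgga
TAP2, chr6:32838740-32838939, minus strand: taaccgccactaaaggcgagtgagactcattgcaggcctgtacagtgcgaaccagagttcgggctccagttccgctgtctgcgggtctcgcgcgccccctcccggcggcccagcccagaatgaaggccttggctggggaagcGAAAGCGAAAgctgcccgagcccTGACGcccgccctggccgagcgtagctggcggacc
TAPBP, chr6:33314079-33314278, minus strand: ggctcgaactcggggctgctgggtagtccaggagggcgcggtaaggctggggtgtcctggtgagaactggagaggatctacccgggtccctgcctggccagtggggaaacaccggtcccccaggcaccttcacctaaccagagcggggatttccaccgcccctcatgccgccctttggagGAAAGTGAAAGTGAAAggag

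HLA-B and HLA-C, whose shown stretches are 87.7% identical in alignment, both held GAAGTGAAA on the minus strand, a TGACG and several CCAAT. HLA-B alone of the 6 also held the kappaB site. B2M, TAP1 and TAPBP each held a pair of overlapping interferon response elements, and TAP2 held a single one with a TGACG. TAP1 also had a CCAAT at base -249 from its start site, upstream of the stretch shown. In the 250 upstream bases of 35116 RefSeq promoters, the interferon response element was found in 3.02%, GAAGTGAAA in 0.44%, TGACG in 21.22%, CCAAT in 32.01% and the kappaB site in 0.07%. None of these letters were found in the PSMB8 window. HLA-E and NLRC5 have no entry in the promoter table used. A match here is a description of the letters only.

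The heavy chains HLA-B and HLA-C present peptides to T cells, and HLA-E presents mainly signal peptides of other class I chains to natural killer receptors. None of them gave a response past the threshold in any line in edgeR's main fit, run on each line alone without a covariate. HLA-B measured 96.9 to 114 CPM with AM-9747 and 111 to 164 CPM with vehicle in BXPC3, with overlapping groups (log2 fold change -0.31 ± 0.14, SE, adjusted p 0.127). In MIAPACA2 it measured 196 to 239 CPM with AM-9747 and 219 to 257 CPM with vehicle (log2 -0.06 ± 0.11, adjusted p 0.745). PSN1 was wide for HLA-B, with 60.3 to 132 CPM under AM-9747 and 88.2 to 197 CPM under vehicle (log2 -0.42 ± 0.32, adjusted p 0.42). The 197 CPM library is vehicle replicate 1, without which the estimate was log2 -0.12, and without TMM scaling it was log2 -0.08. With the mitochondrial share as a covariate the PSN1 change of HLA-B was log2 -0.95 and passed (adjusted p 0.0195). Treated and vehicle libraries overlapped in all 3 lines, and without TMM scaling the MIAPACA2 estimate changed sign to log2 0.08.

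HLA-C came nearest to the threshold in MIAPACA2. It had 123, 128, 122 and 123 CPM in the AM-9747 libraries, against 159.9, 151, 164 and 153 CPM in the vehicle libraries. All 4 treated libraries lay below all 4 vehicle libraries, with log2 -0.31 ± 0.10 and adjusted p 0.0632 in edgeR. DESeq2 called this change (adjusted p 0.00928), as did the fit with the mitochondrial share as a covariate (adjusted p 0.00316). Without TMM scaling the change was log2 -0.16 with adjusted p 0.351. In the joint fit of the 3 lines it was log2 -0.34 with adjusted p 0.39. In BXPC3, HLA-C averaged 293 ± 27.4 CPM with AM-9747 and 299 ± 75.3 CPM with vehicle, and in PSN1 110.2 ± 26 CPM with AM-9747 and 122 ± 37.1 CPM with vehicle. Those BXPC3 and PSN1 estimates (log2 -0.02 ± 0.17 and -0.19 ± 0.24) became 0.16 without BXPC3 vehicle replicate 4 and 0.02 without PSN1 vehicle replicate 1, and the PSN1 one was 0.15 without TMM scaling. HLA-E was lower without overlap in BXPC3 (282 to 312 CPM with AM-9747, 317 to 393 CPM with vehicle) and in PSN1 (41.3 to 54.7 CPM with AM-9747, 58.5 to 70.4 CPM with vehicle). Neither passed, at log2 -0.19 ± 0.11 with adjusted p 0.22 in BXPC3 and log2 -0.48 ± 0.19 with adjusted p 0.122 in PSN1. The PSN1 change passed with a filter at a mean of 5 CPM (adjusted p 0.0381) and in the joint fit of the 3 lines (adjusted p 0.0291). Without TMM scaling it shrank to log2 -0.13 with adjusted p 0.767. In MIAPACA2 the HLA-E groups overlapped (log2 0.01 ± 0.13). HLA-B and HLA-C are near copies of each other on chromosome 6. The HLA-B span of GENCODE 29 (31269491 to 31357188) also reaches into exons of HLA-C (31268749 to 31272130), so the division of reads between them is uncertain.

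**Figure D1:**
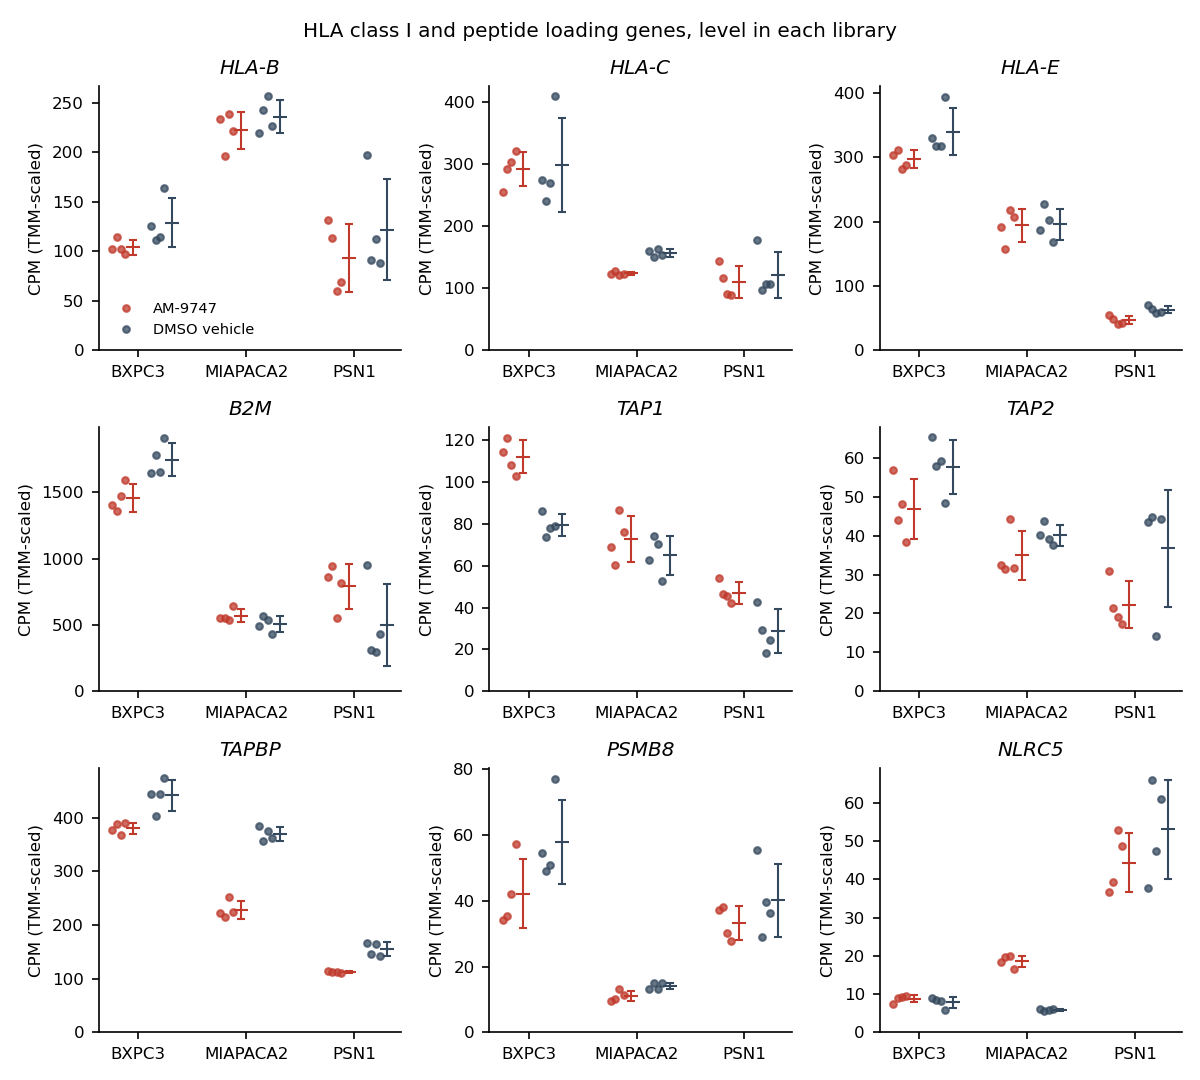
CPM after TMM scaling of the 9 genes in each library, AM-9747 (red) left of vehicle (blue) in each line, with the mean ± SD of 4 libraries beside the points. TAPBP is lower without overlap in all 3 lines, TAP1 is higher in BXPC3, and NLRC5 in MIAPACA2 lies at 16.6 to 19.9 CPM with AM-9747 against 5.63 to 6.23 CPM with vehicle.

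B2M, the light chain without which classical heavy chains do not reach the surface, did not pass in edgeR's main fit of any line with all libraries. Its estimates differed in sign. In BXPC3 it had 1400.1, 1359, 1469.8 and 1593 CPM with AM-9747, against 1643, 1776, 1650.5 and 1904 CPM with vehicle. Those groups did not overlap, with log2 -0.26 ± 0.11 and adjusted p 0.115. With the mitochondrial share as a covariate the BXPC3 change passed (log2 -0.25, adjusted p 0.0146). In MIAPACA2 B2M averaged 571 ± 49.8 CPM with AM-9747 and 508 ± 57.8 CPM with vehicle (log2 0.20 ± 0.12, adjusted p 0.312). In PSN1 it had 863, 940.1, 551 and 814 CPM with AM-9747, against 949, 315, 300.3 and 432 CPM with vehicle. The vehicle library at 949 CPM is replicate 1, which lay above every treated library while the other 3 lay below them all. With all 8 libraries the PSN1 estimate was log2 0.64 ± 0.35 with adjusted p 0.261, and without that replicate it was log2 1.11 with adjusted p 0.013. The difference between lines did not pass with all libraries (F test over the 3 responses, adjusted p 0.179). Without PSN1 vehicle replicate 1 the BXPC3 response minus that of PSN1 was log2 -1.47 (adjusted p 0.00016), against log2 -0.93 with it, and the MIAPACA2 response minus that of PSN1 was log2 -0.99 (adjusted p 0.00352), against log2 -0.50 with it. With all libraries voom also called the BXPC3 and PSN1 pair (adjusted p 0.0335).

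TAP1 and TAP2 encode the 2 subunits of the same pump and lie on either side of PSMB8 on chromosome 6 (32845209 to 32853978 and 32821833 to 32838780 in GENCODE 29, minus strand). Their estimates had opposite signs in all 3 lines, positive for TAP1 and negative for TAP2, also under each alternative run. TAP1 rose in BXPC3, with 114, 121, 108 and 103 CPM in the AM-9747 libraries, against 86.3, 73.6, 78 and 78.8 CPM in the vehicle libraries. Every treated library was above every vehicle library, a 1.41-fold change (log2 0.50 ± 0.10, adjusted p 0.00602). This was the only call among the 9 genes in BXPC3, where 29.2% of all tested genes passed. When the 3 lines were fitted together with a shared spread, the BXPC3 call was lost (log2 0.49, adjusted p 0.108). In PSN1 TAP1 had 54.2, 46.5, 45.4 and 42 CPM with AM-9747, against 42.7, 29.5, 18.2 and 24.3 CPM with vehicle. Vehicle replicate 1 (42.7 CPM) was the one overlap, and the change of log2 0.68 ± 0.26 had adjusted p 0.115, or log2 0.90 and adjusted p 0.0223 without it. The joint fit called the PSN1 change with all libraries (log2 0.71, adjusted p 0.00915). In MIAPACA2 TAP1 averaged 72.9 ± 11 CPM with AM-9747 and 64.9 ± 9.33 CPM with vehicle (log2 0.20 ± 0.15, adjusted p 0.41).

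TAP2 had 56.9, 43.9, 48.2 and 38.4 CPM with AM-9747 in BXPC3, against 65.3, 57.8, 59.1 and 48.3 CPM with vehicle (log2 -0.30 ± 0.15, adjusted p 0.154). The groups overlapped, and leaving out vehicle replicate 4 gave log2 -0.38 with adjusted p 0.0499. In MIAPACA2 it had 32.4, 31.4, 44.2 and 31.6 CPM with AM-9747, against 40.1, 43.8, 39.1 and 37.5 CPM with vehicle (log2 -0.18 ± 0.14, adjusted p 0.454). In PSN1 TAP2 had 31, 21.5, 19.2 and 17.3 CPM with AM-9747, against 43.5, 44.8, 14.2 and 44.2 CPM with vehicle. The vehicle library at 14.2 CPM is replicate 3, below every treated library, while the other 3 lay above them all. With it the change was log2 -0.77 ± 0.36 with adjusted p 0.185, and without it log2 -1.01 with adjusted p 0.024. The joint fit called the PSN1 change with all libraries (log2 -0.72, adjusted p 0.0413). Without TMM scaling it was log2 -0.41 with adjusted p 0.532. TAP2 shares exons on the same strand with the entry AL669918.1, which had 914 counts over all 24 libraries.

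The ratio of TAP1 to TAP2 within a library does not depend on library scaling, and was looked at after the values above were seen, so it is given without a test. Per transcript length, TAP1 stood at 1.69 to 2.33 times TAP2 in BXPC3 with AM-9747 and at 1.07 to 1.38 times with vehicle. In MIAPACA2 the ratio was 1.63 to 2.03 with AM-9747 and 1.19 to 1.52 with vehicle. In PSN1 it was 1.47 to 2.05 with AM-9747 and 0.463 to 1.08 with vehicle. The treated libraries lay above all vehicle libraries in each of the 3 lines. By the principal transcript lengths used (2959 bases for TAP1, 2497 for TAP2), TAP2 exceeded TAP1 only in PSN1 vehicle, in 3 of the 4 libraries. All annotated exons span 4805 and 6390 bases, so which gene is higher depends on the lengths chosen. The comparison of treated with vehicle libraries does not.

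**Figure D2:**
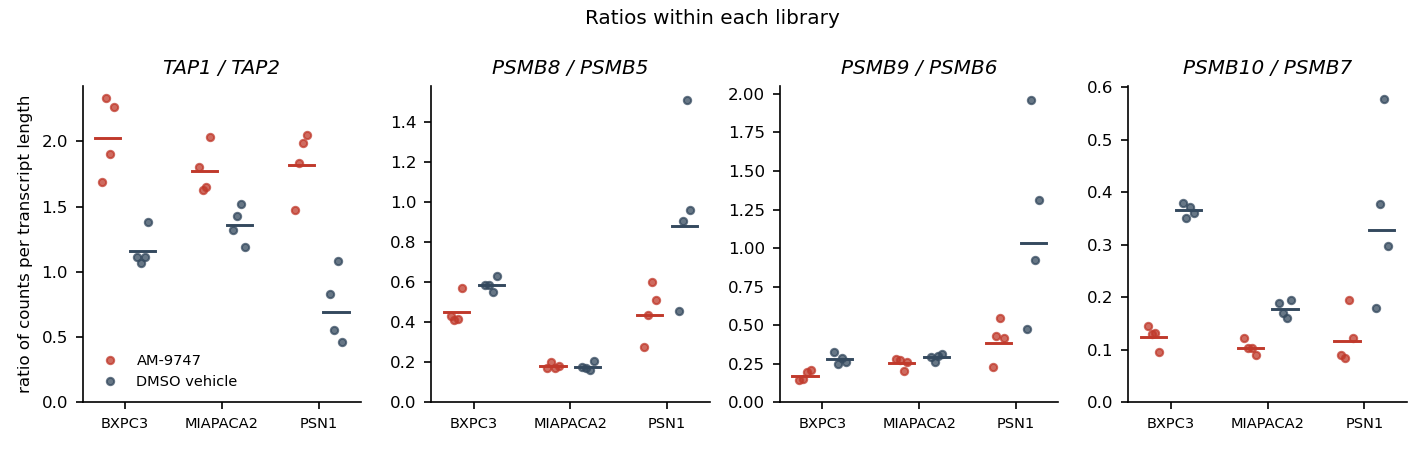
Ratio of counts per transcript length within each library for TAP1 to TAP2 and for each immunoproteasome subunit to its constitutive counterpart, AM-9747 (red) left of vehicle (blue), with a short line at the geometric mean. TAP1 to TAP2 is higher in the AM-9747 libraries of every line without overlap, and PSMB10 to PSMB7 is lower without overlap in BXPC3 and MIAPACA2.

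TAPBP, tapasin, was lower without overlap in every line, and passed the test in MIAPACA2. There it had 223, 214, 252 and 224 CPM with AM-9747, against 385, 356, 375 and 361 CPM with vehicle. All 4 treated libraries lay far below the vehicle libraries (0.629-fold, log2 -0.67 ± 0.11, adjusted p 0.00307). In MIAPACA2, 13.6% of all tested genes passed, and TAPBP and NLRC5 were the 2 of the 9 that did in edgeR, while DESeq2 called 3, HLA-C being the other. In PSN1 TAPBP had 115, 112, 112 and 111 CPM with AM-9747, against 166, 146, 165 and 142 CPM with vehicle (log2 -0.50 ± 0.17, adjusted p 0.0867). The DESeq2 test called that change (adjusted p 0.019), as did the joint fit (log2 -0.46, adjusted p 0.00625). Without TMM scaling it shrank to log2 -0.16 with adjusted p 0.65. In BXPC3 TAPBP had 376, 387, 367 and 389 CPM with AM-9747, against 444, 402, 443 and 474 CPM with vehicle (log2 -0.21 ± 0.10, adjusted p 0.144). TAPBP's response did not pass edgeR's F test of a difference between lines (adjusted p 0.12). For BXPC3 minus MIAPACA2 (log2 0.48, adjusted p 0.16 in edgeR), DESeq2 and voom did call it (adjusted p 0.00261 and 0.0127), and DESeq2 called BXPC3 minus PSN1 (adjusted p 0.0252).

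PSMB8 replaces the constitutive proteasome subunit PSMB5 in the immunoproteasome, a form that makes more of the peptide ends that class I chains prefer. It had 34.2, 35.4, 42.1 and 57.3 CPM with AM-9747 in BXPC3, against 54.6, 49.2, 51 and 77 CPM with vehicle (log2 -0.45 ± 0.21, adjusted p 0.129). Replicate 4 was the highest of both groups. Without the treated one the change was log2 -0.64 with adjusted p 0.0327, and without the vehicle one log2 -0.29 with adjusted p 0.232. With all libraries the change passed with the mitochondrial share as a covariate (adjusted p 0.0121) and with a replicate block (adjusted p 0.00848). In MIAPACA2 PSMB8 averaged 11.1 ± 1.64 CPM with AM-9747 and 14.1 ± 0.998 CPM with vehicle (log2 -0.32 ± 0.15, adjusted p 0.189). In PSN1 it averaged 33.3 ± 5.15 CPM with AM-9747 and 40.1 ± 11.2 CPM with vehicle (log2 -0.30 ± 0.23, adjusted p 0.424). PSMB8 overlaps exons of PSMB9 and of PSMB8-AS1 on the opposite strand. The library kit keeps strand, but how the counting treated it is not given in the sources used here, so their reads may be mixed.

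The 3 immunoproteasome subunits were also set against the constitutive subunits they replace, as ratios of counts per length in each library. Of the 9 ratios, 8 were lower with AM-9747, 3 did so without overlap, and none passed after adjustment over the 9 (exact permutation test, two-sided, lowest adjusted p 0.0857). The smallest p that 4 against 4 libraries allow is 0.0286, which 3 ratios reached before adjustment. PSMB10 to PSMB7 had a geometric mean of 0.125 with AM-9747 and 0.365 with vehicle in BXPC3 (0.341-fold, exact p 0.0286), and of 0.104 with AM-9747 and 0.179 with vehicle in MIAPACA2 (0.582-fold, exact p 0.0286). In PSN1 it was 0.116 with AM-9747 and 0.329 with vehicle (0.354-fold, exact p 0.0571). PSN1 also had 0.438 with AM-9747 and 0.879 with vehicle for PSMB8 to PSMB5 (0.498-fold, exact p 0.0857), and 0.388 with AM-9747 and 1.03 with vehicle for PSMB9 to PSMB6 (0.376-fold, exact p 0.0571). In all 3 PSN1 ratios the overlap came from vehicle replicate 1 alone. For PSMB8 to PSMB5 the treated libraries reached at most 0.598, against 0.456 in that vehicle library and at least 0.906 in the other 3. PSMB9 to PSMB6 was 0.174 with AM-9747 and 0.281 with vehicle in BXPC3 (0.62-fold, exact p 0.0286). PSMB8 to PSMB5 was 0.453 with AM-9747 and 0.587 with vehicle in BXPC3 (exact p 0.0571). The ratio that was not lower was the same pair in MIAPACA2, at 0.18 with AM-9747 and 0.177 with vehicle (exact p 0.8).

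NLRC5 gave the largest response of the 9 genes, in MIAPACA2. It had 18.3, 19.6, 19.9 and 16.6 CPM in the AM-9747 libraries, against 6.23, 5.63, 5.93 and 6.01 CPM in the vehicle libraries. The groups were far apart, and the change was 3.18-fold (log2 1.67 ± 0.14, adjusted p 0.000223). The counts behind these values were 751 to 797 per library with AM-9747 and 199 to 275 with vehicle. In BXPC3 NLRC5 had 7.48, 8.91, 9.13 and 9.65 CPM with AM-9747, against 9.01, 8.44, 8.21 and 5.83 CPM with vehicle (log2 0.16 ± 0.17, adjusted p 0.517). In PSN1 it had 36.7, 39.2, 53 and 48.8 CPM with AM-9747, against 37.8, 66.1, 47.5 and 61.1 CPM with vehicle (log2 -0.31 ± 0.25, adjusted p 0.453). Groups overlapped in both of those lines, and the PSN1 estimate was 0.04 without TMM scaling. Across the MIAPACA2 alternatives the NLRC5 change stayed between log2 1.63 and 1.82 and kept its call in all 18.

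The response of NLRC5 differed between lines (edgeR's F test in the fit of all 24 libraries, adjusted p 9.72e-05). It was the 1 of the 9 that passed this test, where 12.1% of all tested genes did. DESeq2 and voom each called 3 of the 9, and edgeR called 3 without PSN1 vehicle replicate 1. Between MIAPACA2 and PSN1, the TAP1 difference passed without that library (log2 -0.78, adjusted p 0.0163) and the TAP2 difference without PSN1 vehicle replicate 3 (log2 0.82, adjusted p 0.0494). The HLA-E difference in that pair (log2 0.42, adjusted p 0.187 in edgeR) was called by DESeq2 (0.0107). It also passed with a filter at a mean of 5 CPM (0.0051) and with the mitochondrial share as a covariate (0.0213). For NLRC5, the BXPC3 response minus that of MIAPACA2 was log2 -1.48 ± 0.26 (adjusted p 0.00222, background 2.07%). The MIAPACA2 response was above that of PSN1 by log2 1.90 ± 0.26 (adjusted p 6.35e-05, background 10.4%). BXPC3 and PSN1 differed by log2 0.42 ± 0.26, which did not pass (adjusted p 0.318), and none of the 9 passed in that pair, where 8.33% of all genes did. At an unadjusted p under 0.05 the count in that pair was 1, and DESeq2 and voom each called 1. MIAPACA2 also received the higher dose. In the same MIAPACA2 libraries HLA-B, HLA-C, HLA-E, B2M, TAP1, TAP2 and PSMB8 did not pass in edgeR's main fit, and TAPBP fell.

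**Figure D3:**
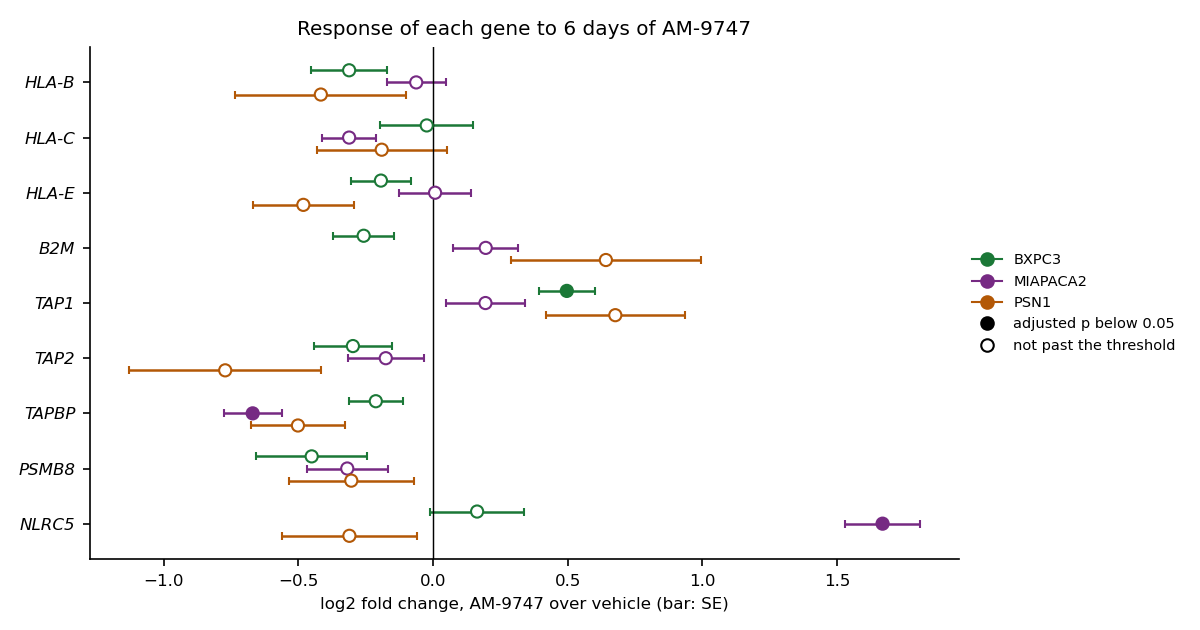
Log2 fold change of AM-9747 over vehicle for the 9 genes in each line, with SE bars, filled where adjusted p is below 0.05 in the fit of that line. TAP1 in BXPC3 and NLRC5 and TAPBP in MIAPACA2 are filled, and TAP1 and TAP2 lie on opposite sides of 0 in all 3 lines.

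In PSN1 none of the 9 genes passed, where 10.7% of all tested genes did (edgeR's quasi-likelihood test, main fit). At an unadjusted p under 0.05 the count was 3 (HLA-E, TAP1 and TAPBP), DESeq2 called 1 and voom called 0. Groups did not overlap for 4 of the 9 genes in BXPC3, 3 in MIAPACA2 and 2 in PSN1, against 32.2%, 20.9% and 21.4% of all tested genes. The 9 genes had median log2 changes of -0.21 (BXPC3), -0.06 (MIAPACA2) and -0.31 (PSN1), beside medians of 0, -0.002 and 0.035 over all tested genes. Taking the mean of the 3 responses in the joint fit, 5 of the 9 passed, where 23.3% of all genes did. TAP1 (log2 0.46 ± 0.11, adjusted p 0.00359) and NLRC5 (log2 0.52 ± 0.11, adjusted p 0.000916) were higher. TAPBP (log2 -0.46 ± 0.07, adjusted p 2.1e-05), TAP2 (log2 -0.41 ± 0.15, adjusted p 0.0471) and PSMB8 (log2 -0.36 ± 0.12, adjusted p 0.0325) were lower. The mean for NLRC5 averages over lines that differed. The TAP2 call was lost in 19 of the 24 fits that each left out 1 library (adjusted p up to 0.0821), and the PSMB8 call in 9 of 24 (up to 0.066). Without TMM scaling both calls were lost, at log2 -0.245 for TAP2 and -0.198 for PSMB8 (adjusted p 0.312 for each). HLA-E did not pass in edgeR (log2 -0.22 ± 0.08, adjusted p 0.0612) and was called in 9 of the 33 alternatives, with DESeq2 (adjusted p 0.00457) and without PSN1 vehicle replicate 3 (adjusted p 0.0334) among them. B2M (log2 0.19 ± 0.15, adjusted p 0.398) passed only without PSN1 vehicle replicate 1, at log2 0.36 and adjusted p 0.00491. HLA-B passed only with the mitochondrial share as a covariate (log2 -0.38, adjusted p 0.00767).

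The vehicle libraries show how the 9 genes stood in each line without the inhibitor. Per kilobase of transcript, B2M was the most abundant of the 9 in each line, at 1022 CPM per kb in BXPC3, 298 in MIAPACA2 and 293 in PSN1. By group means NLRC5 was the least abundant, at 1.15, 0.873 and 7.79 CPM per kb in BXPC3, MIAPACA2 and PSN1, though not in every PSN1 library. In BXPC3 vehicle the others ran TAPBP 233, HLA-C 195, HLA-E 131, HLA-B 83.3, PSMB8 51.6, TAP1 26.8 and TAP2 23.1 CPM per kb. TAPBP was second after B2M in BXPC3 and MIAPACA2, where it stood at 196 CPM per kb. In PSN1, TAPBP (81.9), HLA-C (79.7) and HLA-B (78.8) were within the spread of one another in CPM per kb. TAP1 and TAP2 were close in BXPC3, and in PSN1 HLA-E stood at 24.3 CPM per kb, below PSMB8 at 35.6. These orders between genes rest on the lengths of the principal transcripts.

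**Figure D4:**
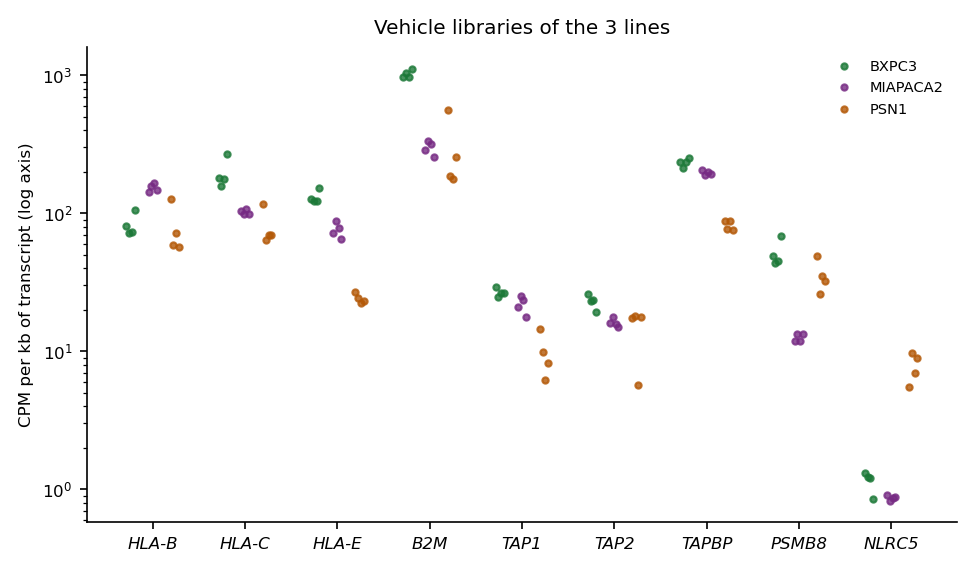
CPM per kilobase of principal transcript (log axis) of the 9 genes in the 4 vehicle libraries of each line, each point a library. B2M is highest in every line, HLA-E steps down through BXPC3, MIAPACA2 and PSN1, PSMB8 is lowest in MIAPACA2, and NLRC5 is highest in PSN1.

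Between pairs of vehicle groups, 5 of the 9 genes passed for BXPC3 over MIAPACA2, 8 for BXPC3 over PSN1 and 6 for MIAPACA2 over PSN1, where 50.3%, 62.5% and 54.4% of all tested genes did. HLA-E was ordered BXPC3, MIAPACA2, PSN1, each step passing: 1.73-fold for BXPC3 over MIAPACA2 (log2 0.79 ± 0.14, adjusted p 6.64e-05) and 3.11-fold for MIAPACA2 over PSN1 (log2 1.64 ± 0.15, adjusted p 1.69e-09). HLA-B was highest in MIAPACA2, with log2 -0.88 ± 0.24 for BXPC3 over MIAPACA2 (adjusted p 0.00368) and log2 0.96 ± 0.24 for MIAPACA2 over PSN1 (adjusted p 0.0017), while BXPC3 and PSN1 did not differ beyond their spread (log2 0.08 ± 0.24). HLA-C was higher in BXPC3 than in MIAPACA2 (1.91-fold, adjusted p 0.000321) and PSN1 (2.44-fold, adjusted p 5.83e-06), and did not pass for MIAPACA2 over PSN1 (log2 0.36 ± 0.19, adjusted p 0.125, or log2 0.54 and adjusted p 0.00968 without PSN1 vehicle replicate 1). The uncertain division of reads between HLA-B and HLA-C also bears on these orders of the lines, and its part in them was not tested. B2M was 3.43-fold higher in BXPC3 than in MIAPACA2 (adjusted p 4.13e-06) and 3.49-fold higher than in PSN1 (adjusted p 3.12e-06). MIAPACA2 and PSN1 were at log2 0.02 ± 0.26 for B2M, or 0.48 with adjusted p 0.0177 without PSN1 vehicle replicate 1.

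TAP1 and TAPBP were lower in PSN1 than in both other lines. BXPC3 exceeded PSN1 by 2.76-fold for TAP1 and 2.85-fold for TAPBP, and MIAPACA2 exceeded it by 2.26-fold and 2.39-fold (adjusted p 1.94e-05 or lower in all 4). BXPC3 over MIAPACA2 did not pass in edgeR for TAP1 (log2 0.29 ± 0.19), TAP2 (log2 0.52 ± 0.26, adjusted p 0.0912) or TAPBP (log2 0.26 ± 0.12, adjusted p 0.0728). TAPBP was called there by DESeq2 (adjusted p 0.0047) and voom (0.0118) and without PSN1 vehicle replicates 1 (0.0103) or 3 (0.018), and TAP2 by voom (0.0119) and without PSN1 vehicle replicate 3 (0.0063). TAP2 in BXPC3 over PSN1 passed narrowly (log2 0.65 ± 0.26, adjusted p 0.0304) and not without PSN1 vehicle replicate 3 (log2 0.39, adjusted p 0.0824) or BXPC3 vehicle replicates 1 (adjusted p 0.0742) or 3 (adjusted p 0.054). With all libraries DESeq2 did not call it (adjusted p 0.0546), and 26 of 34 alternatives kept the call. PSMB8 was 4.11-fold higher in BXPC3 than in MIAPACA2 (adjusted p 2e-08) and 0.352-fold as high in MIAPACA2 as in PSN1 (adjusted p 2.14e-06). Its step from BXPC3 over PSN1 (log2 0.53 ± 0.21, adjusted p 0.0286) was lost without BXPC3 vehicle replicate 4 (adjusted p 0.129) and without PSN1 vehicle replicates 2 (0.0824) or 4 (0.0638). With all libraries neither DESeq2 (adjusted p 0.0554) nor voom (0.0886) called that step, and 25 of 34 alternatives kept the call.

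NLRC5 was highest in PSN1. Its level was 0.148-fold in BXPC3 (log2 -2.75 ± 0.20, adjusted p 3.15e-11) and 0.112-fold in MIAPACA2 (log2 -3.16 ± 0.20, adjusted p 3.38e-12) relative to PSN1. BXPC3 over MIAPACA2 did not pass (log2 0.40 ± 0.19, adjusted p 0.0746), but did without BXPC3 vehicle replicate 4 (adjusted p 0.0238) and without PSN1 vehicle replicates 1 (0.0241) or 3 (0.0323). The line with the highest NLRC5 level had the lowest HLA-E, TAP1 and TAPBP levels.

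Other genes of the pathway were taken from lists by role. Of the heavy chains outside the 9, HLA-F and HLA-G are given here. HLA-F fell in PSN1 (log2 -1.90 ± 0.48, adjusted p 0.0304, lost in 5 of the 8 fits that left out a library), where vehicle replicate 3 had 50.1 CPM and the other vehicle libraries 10.8 to 16.9 CPM. HLA-G passed in MIAPACA2 at under 1 CPM in every library. HLA-F was the 1 tested of the pair in PSN1, where 6.17% of all genes were lower, and HLA-G was 1 of 2 tested in MIAPACA2, where 6.73% were higher. In BXPC3 HLA-F did not pass (log2 0.67 ± 0.36, adjusted p 0.192).

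PSMB10, the last of the 3 inducible catalytic subunits, fell in every line. It had 22.2, 21.8, 27.2 and 25.1 CPM with AM-9747 in BXPC3, against 54.7, 50.6, 56.4 and 91.3 CPM with vehicle (log2 -1.39 ± 0.20, adjusted p 0.000798). In MIAPACA2 it averaged 18.6 ± 1.22 CPM with AM-9747 and 40.2 ± 7.41 CPM with vehicle (log2 -1.09 ± 0.16, adjusted p 0.00174). In PSN1 it averaged 18.9 ± 4.53 CPM with AM-9747 and 59.4 ± 26.2 CPM with vehicle (log2 -1.70 ± 0.32, adjusted p 0.0102). The AM-9747 and vehicle libraries did not overlap in any of the 3 lines. Of the 5 genes of the immunoproteasome list, 1 was lower in BXPC3, 1 in PSN1 and 4 in MIAPACA2, where 16.0%, 6.17% and 6.84% of all genes were lower. The list's median in MIAPACA2 was log2 -0.55. The other MIAPACA2 calls were PSMB9 (log2 -0.51 ± 0.14, adjusted p 0.0381) and the proteasome activator subunits PSME1 (log2 -0.67 ± 0.12, adjusted p 0.00468) and PSME2 (log2 -0.55 ± 0.14, adjusted p 0.0245). PSMB9 lost its call in 6 of 8 fits without a library and PSME2 in 3 of 8 (adjusted p up to 0.123 and 0.0778). PSMB5, PSMB6 and PSMB7, the constitutive subunits, did not pass in any line with all libraries and no covariate. EdgeR, DESeq2 and voom each called 0 of 3 in each line, where 29.2%, 13.6% and 10.7% of all genes passed in edgeR in BXPC3, MIAPACA2 and PSN1. At an unadjusted p under 0.05 the counts were 0, 2 and 0 in those lines. Their estimates ran from log2 -0.33 to 0.57. With the mitochondrial share as a covariate, edgeR called PSMB5 (log2 -0.33, adjusted p 0.0102), PSMB6 (log2 -0.285, adjusted p 0.0323) and PSMB7 (log2 -0.29, adjusted p 0.0178) lower in MIAPACA2. Without MIAPACA2 AM-9747 replicate 3, PSMB5 (log2 -0.47, adjusted p 0.0283) and PSMB6 (log2 -0.51, adjusted p 0.041) passed there. Without PSN1 vehicle replicate 1, PSMB5 (log2 1.28, adjusted p 0.0259) and PSMB6 (log2 1.24, adjusted p 0.0312) passed in PSN1, against log2 0.57 for each with it.

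Of 9 other loading and trimming genes, TAPBPL, the TAPBPR chaperone that edits peptides beside tapasin, was the only call of edgeR's test, in BXPC3 and MIAPACA2, where 29.2% and 13.6% of all genes passed. DESeq2 called 2 of the 9 in each of these lines. TAPBPL averaged 9.5 ± 1.23 CPM with AM-9747 and 31.1 ± 3.77 CPM with vehicle in BXPC3 (log2 -1.71 ± 0.15, adjusted p 6.45e-05). In MIAPACA2 it averaged 3.9 ± 0.847 CPM with AM-9747 and 8.59 ± 1.89 CPM with vehicle (log2 -1.11 ± 0.24, adjusted p 0.0128), and in PSN1 it did not pass (log2 -0.79 ± 0.48, adjusted p 0.313). In PSN1, where 10.7% of all genes passed, edgeR, DESeq2 and voom called 0 of the 9, and 2 had an unadjusted p under 0.05 in edgeR. The chaperones CALR, CANX and PDIA3 and the trimming enzymes ERAP1 and ERAP2 passed edgeR's test in no line. Of 8 class I related ligands, HFE, which binds the transferrin receptor, fell in BXPC3 (log2 -1.40 ± 0.17, adjusted p 0.000317) and MIAPACA2 (log2 -1.03 ± 0.11, adjusted p 0.000615). ULBP1 fell in BXPC3 (log2 -1.93 ± 0.25, adjusted p 0.000538) while MICB rose there (log2 0.57 ± 0.16, adjusted p 0.0229, lost in 3 of 8 fits without a library). Both are stress ligands of a natural killer receptor. In all, 2 of 7 tested ligands were higher and 2 lower in BXPC3, and 1 of 7 was lower in MIAPACA2. Over all genes, 13.2% were higher and 16.0% lower in BXPC3, and 6.84% were lower in MIAPACA2. In PSN1 edgeR, DESeq2 and voom called 0 of 6, with 1 at an unadjusted p under 0.05 in edgeR. ULBP1 passed there without PSN1 vehicle replicate 3 (log2 -2.53, adjusted p 0.0179, against log2 -2.13 and 0.223 with it).

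Among 14 transcription factors of class I genes, RFXANK, a partner of NLRC5, fell in all 3 lines. It averaged 31.4 ± 11.6 CPM with AM-9747 and 65.1 ± 22.8 CPM with vehicle in BXPC3 (log2 -1.05 ± 0.30, adjusted p 0.0246). In MIAPACA2 it averaged 41.8 ± 2.55 CPM with AM-9747 and 56.6 ± 5.37 CPM with vehicle (log2 -0.41 ± 0.12, adjusted p 0.0424), and in PSN1 27.6 ± 2.34 CPM with AM-9747 and 54.2 ± 12.1 CPM with vehicle (log2 -1.01 ± 0.22, adjusted p 0.0174). Groups did not overlap in any of the lines, but the call was lost in 2, 7 and 3 of the 8 fits without a library in BXPC3, MIAPACA2 and PSN1 (adjusted p up to 0.136). RFXAP fell in BXPC3 (log2 -1.38 ± 0.27, adjusted p 0.0041). IRF1, an interferon-induced activator of class I genes, fell there too, to 104 ± 7.04 CPM with AM-9747 against 139.9 ± 18.6 CPM with vehicle (log2 -0.42 ± 0.12, adjusted p 0.0268), a call lost in 4 of 8 fits without a library (adjusted p up to 0.083). In all, 3 of 14 were lower and none higher in BXPC3, where 16.0% of all genes were lower, with 1 lower in each other line (6.84% of all genes in MIAPACA2 and 6.17% in PSN1). DESeq2 called 5, 3 and 1 of the 14 in BXPC3, MIAPACA2 and PSN1, and the list's medians were log2 -0.08, -0.24 and 0.09 in BXPC3, MIAPACA2 and PSN1.

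JAK2, the kinase beside the interferon gamma receptor, rose in every line. It had 47.9, 47.3, 57.7 and 57.1 CPM with AM-9747 in BXPC3, against 32.4, 29.3, 30.5 and 14.7 CPM with vehicle (1.97-fold, log2 0.98 ± 0.23, adjusted p 0.0101). In MIAPACA2 it had 68.1, 77.9, 37.1 and 61.3 CPM with AM-9747, against 13.7, 15.7, 15.2 and 14.3 CPM with vehicle (4.22-fold, adjusted p 0.000391). In PSN1 it had 33, 46.1, 57.4 and 59.5 CPM with AM-9747, against 9.79, 12.4, 1.53 and 9.72 CPM with vehicle (5.68-fold, adjusted p 0.0141). No treated library of any line overlapped its vehicle group. Of the 7 genes of the interferon gamma receptor list, 3 were higher in BXPC3 and 1 in each other line, where 13.2%, 6.73% and 4.52% of all genes were. The other BXPC3 calls were IFNGR2, a receptor chain (log2 0.46 ± 0.14, adjusted p 0.0308), and SOCS3, a feedback inhibitor (log2 0.49 ± 0.12, adjusted p 0.0125). IFNGR2 lost its call in 6 of 8 fits without a library, and SOCS3 only without vehicle replicate 1 (log2 0.44, adjusted p 0.0502). SOCS3 fell in MIAPACA2 (log2 -0.43 ± 0.13, adjusted p 0.0491, lost in 7 of 8), and its response differed between lines (adjusted p 0.00651). For class II, the invariant chain CD74 rose in BXPC3 to 32.6 ± 4.21 CPM with AM-9747, against 13 ± 2.35 CPM with vehicle (log2 1.33 ± 0.16, adjusted p 0.000377). CD74 was far more abundant in PSN1, at 222 ± 34.8 CPM with AM-9747 and 283 ± 49.1 CPM with vehicle (log2 -0.39 ± 0.21, adjusted p 0.249). Of the class II list, 1 of 4 tested genes was higher in BXPC3 and 1 of 6 in MIAPACA2, where 13.2% and 6.73% of all genes were. In PSN1 the 10 tested genes had a median response of log2 0.24, and 0 of them passed edgeR's quasi-likelihood test after adjustment, where 10.7% of all genes did, against 2 at an unadjusted p under 0.05 and 1 by DESeq2.

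**Figure D5:**
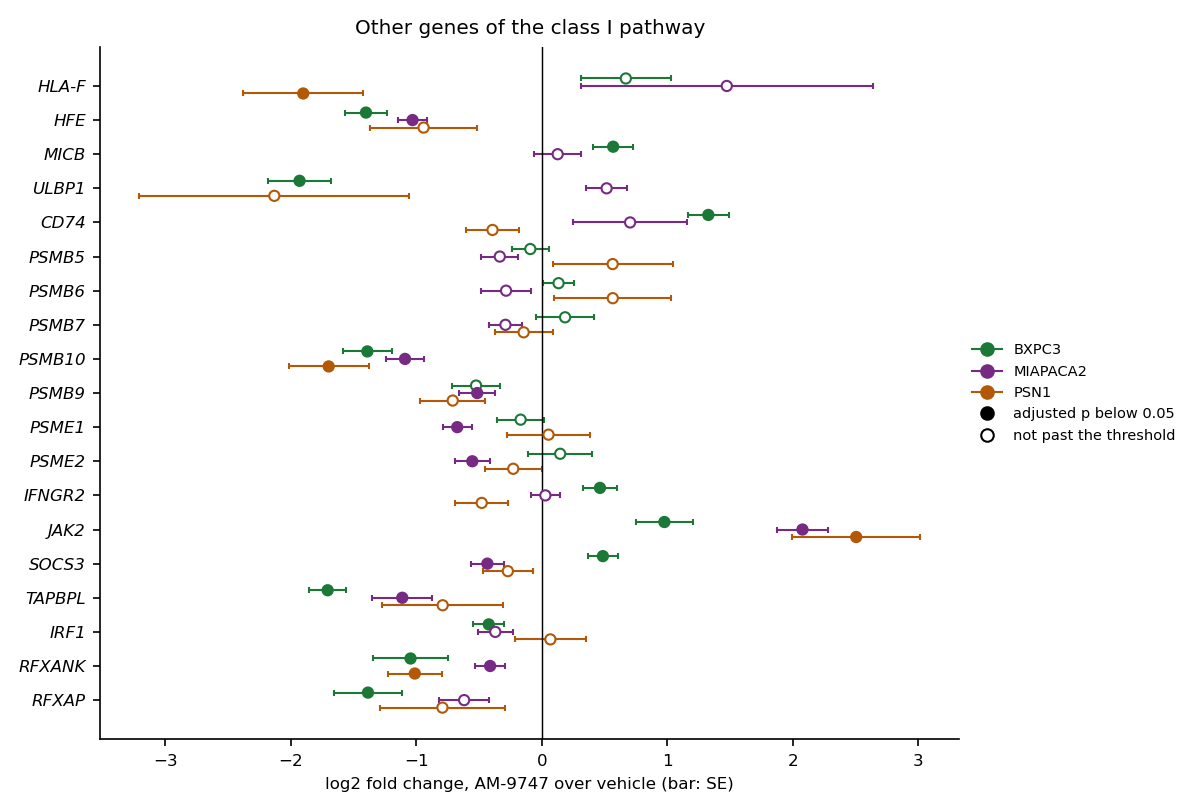
Log2 fold change of AM-9747 over vehicle, with SE bars, for the named genes of the pathway lists in each line, filled where adjusted p is below 0.05 and left out where a gene was not tested. PSMB10 and RFXANK are lower and JAK2 is higher in all 3 lines, and CD74 is higher in BXPC3 with log2 1.33.

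The genes whose pattern over the 6 group means was most like that of HLA-B, NLRC5 and B2M were sought among 11216 protein-coding genes with a mean of at least 5 CPM, by the root mean square difference of centred log2(CPM + 1) values. For HLA-B the nearest were AGK (0.09), HSDL1 (0.10), FLOT1 (0.11), PMS2 (0.12) and PPP3CB (0.12), and the nearest of the other 8 genes was TAP2, at 0.60. For B2M the nearest reported were NBN (0.07), ARHGEF12 (0.10), EFR3A (0.10), FBXO25 (0.11) and GTPBP8 (0.13), with HLA-C at 0.39 the nearest of the other 8. For NLRC5 the nearest was SLC45A3 (0.22), then NPIPA9 (0.34), RPGR (0.36), ZNF337 (0.37) and POLR3G (0.37), and the nearest of the other 8 was PSMB8, at 1.33. With 6 points per gene, these values describe likeness of levels only.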

How the data were processed

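The measurements are raw gene counts, as deposited, for the 24 libraries. Per the submitters' processing notes, fastp 0.19.8, HISAT2 2.2.0, R 4.0.2, DESeq2 1.34.0 and the build GRCh38 were used by the authors. Which counter, strand setting and annotation were used is not given in the sources used here. Gene symbols and Ensembl IDs are those of the deposited files; 56271 of 60366 entries matched GENCODE 29, which gave positions and lengths. The 1862 entries without an Ensembl ID, named as miRNA hairpins and at most 0.0254% of the counts of a library, were kept. Promoter sequences are from RefSeq (GRCh38.p14), where 7 of the 9 genes had an entry.

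Groups follow the labels. Counts were scaled by TMM, filtered with filterByExpr and tested with the quasi-likelihood test of edgeR 4.0.16 (R 4.3.3), each line alone for the responses and all 24 libraries together for the mean response, its difference between lines and the vehicle pairs. P-values were adjusted over all genes tested (Benjamini-Hochberg, threshold 0.05). CPM per kb used the principal transcript of GENCODE 29. Ratios within a library were tested by exact permutation. DESeq2 1.42.0, voom in limma 3.58.1, other scalings and filters, a replicate block, the mitochondrial share as a covariate and leaving out each library were the alternatives. Plots used Python 3.11.15 and matplotlib 3.10.9. The procedure was tested on simulated data.

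The 9 genes, the lists and the tests were chosen with earlier results of these data known. Named are the 9 genes; of each list, genes passing in at least 2 lines and, in each line, the 3 largest changes among those passing with a mean of at least 1 CPM; the genes of the ratios; and for HLA-B, NLRC5 and B2M the nearest genes in pattern. Other genes were named after their values were seen. Some genes of the lists and of the search for like patterns are not reported here, and counts, medians and ranks leave them out. Every pair of libraries in a group differed by more than counting noise (chi-square per gene at least 6.69).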

Additional observations from a re-analysis of the deposited data

Results flagged for a closer look

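Among 54 groups of 4 libraries (9 genes in 6 groups), 5 held a library whose gap to its nearest neighbour took an unusually large share of the group's range. Chance gives this in about 1 in 20 groups. HLA-C had such a high library in MIAPACA2 with AM-9747, replicate 2, at 128 CPM (share of the range 0.838), where the range itself is narrow. It had another in PSN1 vehicle replicate 1, at 178 CPM (0.882). B2M was high in MIAPACA2 with AM-9747, replicate 4, at 645 CPM (0.857). TAP2 was high in MIAPACA2 with AM-9747, replicate 3, at 44.2 CPM (0.921), and low in PSN1 vehicle replicate 3, at 14.2 CPM (0.957).

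The response to AM-9747 differed between lines for NLRC5 (F test in edgeR, adjusted p 9.72e-05), with adjusted p 0.00222 for BXPC3 minus MIAPACA2 and 6.35e-05 for MIAPACA2 minus PSN1. Among the other pathway genes the same F test passed for HLA-F (adjusted p 0.0301), MICB (0.00671), IFNGR2 (0.0295), SOCS3 (0.00651) and CD74 (0.0066). MICB lay at 0 to 0.772 CPM in PSN1, where its response was not tested, and HLA-F at 0 to 0.517 CPM in MIAPACA2. Those differences include a line near the floor. MIAPACA2 had the higher dose, which cannot be told apart from the line in these differences.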

How the results depend on the processing

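Of 2248 values recomputed with a single library left out, 2088 kept their direction and side of the threshold, 43 changed sign without a call on either side, 81 lost a call and 36 gained one. Of 1434 values under the other alternatives, 1284 did so, 45 changed sign without a call, 43 lost and 60 gained a call, and 2 reversed: with the mitochondrial share as a covariate, BXPC3 over PSN1 vehicle became log2 -0.68 for HLA-B (adjusted p 0.0429) and -0.018 for TAP2 (0.983). The number of the 9 genes called in BXPC3 (1) was 5 with that covariate and 0 in the joint fit of the 6 groups, and 1 to 2 with a library left out. In PSN1 (0) it was 2 with a mean of at least 5 CPM, 1 with DESeq2, 1 with the covariate, 4 in the joint fit and 0 to 2 with a library left out. For the mean response (5) it was 3 without scaling and 3 to 6 with a library left out. For the difference between lines (1) it was 2 with a mean of at least 5 CPM, 3 with DESeq2, 3 with voom, 2 with the covariate and 1 to 3 with a library left out. The MIAPACA2 count (2) and the vehicle count (19, or 18 to 23 with a library left out) stayed within 1.5 times under every alternative run. The cause of these moves was not tested.

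With a replicate block the counts were 3 in BXPC3, 1 in PSN1 and 2 for the difference between lines. Over all genes it called 7119 in BXPC3, 1700 in MIAPACA2 and 3355 in PSN1, against 5158, 2456 and 1954 without it. Same-numbered libraries correlated from -0.428 to 0.63, with negative and positive pairs in each line. These values do not settle whether the numbers pair the libraries, and the labels do not say. For the immunoproteasome ratios the block allows no p below 0.125, and the ratios were not tested with a library left out.

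Over all genes, DESeq2 called 3708 in MIAPACA2, 3653 in PSN1 and 4871 for the difference between lines, where edgeR called 2456, 1954 and 2765. The joint fit called 2414, 1151 and 5761 in BXPC3, MIAPACA2 and PSN1, and the covariate 7910 in BXPC3 and 6135 in MIAPACA2. For BXPC3 over PSN1 vehicle the covariate called 8029, against 14297 without it. For BXPC3 minus MIAPACA2 (474) the counts were 1128 with DESeq2, 1525 with voom and 977 with the covariate. For BXPC3 minus PSN1 (1906) they were 3421 with DESeq2 and 3286 with the block, and for MIAPACA2 minus PSN1 (2390) 3785 and 3776. The lowest count of any of the 9 genes in a library was 199, for NLRC5.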
